A study of Homo sapiens with 8 samples.

Results

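Messenger RNA of 33 genes of glucose breakdown and of the response to low oxygen was followed, after a pulse of a mitotic kinase inhibitor, in 2 established lines of human lung cancer cells, NCI-H1944 and NCI-H647. The genes were taken by symbol from these pathways: 14 glycolytic enzymes, 2 glucose transporters, 3 regulators of glycolytic flux, 4 genes of the oxygen-sensing machinery and 10 other targets of hypoxia-inducible factor. All 33 were found under their symbols, each in a single entry, among 46427 genes listed for NCI-H1944 and 61271 listed for NCI-H647. The inhibitor was BAY-1217389, written MPS1i, which blocks the spindle checkpoint kinase MPS1, the product of TTK, so that cells divide before every chromosome is attached. Each line, of wild-type genotype by its label, received 100 nM MPS1i or DMSO, the solvent control, for 48 hours, and was grown for a further 24 hours after the drug had been washed out. The 4 groups held 2 libraries each (n = 2 throughout), and the labels give no oxygen level and leave unsaid whether replicates were grown apart. The spread behind each p-value is thus that between these libraries and may be technical.

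Glycolysis splits glucose into pyruvate in the cytosol, and lactate dehydrogenase can turn that pyruvate into lactate. Many tumour cells run this route fast even where oxygen is present. Hypoxia-inducible factors are pairs of an oxygen-labile alpha subunit and a stable beta subunit. In the presence of oxygen, prolyl hydroxylases mark the alpha subunit for destruction, a step that acts on the protein and is not read by a measurement of RNA. When the alpha subunit persists, the factor binds DNA at a short core and raises the transcription of glucose transporters, most glycolytic enzymes and a further set of genes for blood vessel growth, acid balance, collagen modification and mitochondrial turnover. Glycolytic enzymes and other hypoxia targets therefore share an activator, and their changes were set beside each other in each line.

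Letters around a RefSeq start of 8 of these genes are shown. Among genes that rose, fell and did not pass the test, some of each carried the core of the hypoxia response element. Windows from 250 bases before to 50 bases after the gene start were taken from RefSeq for build GRCh38.p14, and 29 of the 33 genes had one. VEGFA, SLC2A3, BNIP3L and NDRG1 had none. The core was searched as ACGTG or GCGTG on both strands, and capitals mark it in each sequence below, so that on the printed strand it can read CACGT or CACGC. The palindrome CACGTG, which is also the letters of an E-box, holds ACGTG on both strands and was counted as 1 core. Sequences are written 5′ to 3′ on the strand of the gene. PFKFB4 and PFKFB3, regulators that rose in NCI-H647, are shown up to the RefSeq start or to the first annotated exon. So are GAPDH, an enzyme that fell in both lines, and BNIP3, a target called in neither line. Of ADM and P4HA1, targets that rose in NCI-H647, and of LDHA and ENO1, enzymes that fell in both lines, 30 bases around a core are given, which lie wholly in annotated exons, while the stretches of the former 4 hold no annotated exon.
PFKFB4, chr3:48556891-48557053, minus strand: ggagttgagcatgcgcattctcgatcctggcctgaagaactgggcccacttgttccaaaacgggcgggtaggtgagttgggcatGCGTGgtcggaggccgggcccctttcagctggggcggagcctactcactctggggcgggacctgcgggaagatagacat
PFKFB3, chr10:6144671-6144920, plus strand: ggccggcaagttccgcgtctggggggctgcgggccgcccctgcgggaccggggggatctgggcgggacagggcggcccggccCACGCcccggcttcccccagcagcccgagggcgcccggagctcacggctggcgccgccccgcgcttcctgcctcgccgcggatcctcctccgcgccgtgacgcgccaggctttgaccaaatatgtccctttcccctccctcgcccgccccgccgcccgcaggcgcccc
GAPDH, chr12:6535014-6535263, plus strand: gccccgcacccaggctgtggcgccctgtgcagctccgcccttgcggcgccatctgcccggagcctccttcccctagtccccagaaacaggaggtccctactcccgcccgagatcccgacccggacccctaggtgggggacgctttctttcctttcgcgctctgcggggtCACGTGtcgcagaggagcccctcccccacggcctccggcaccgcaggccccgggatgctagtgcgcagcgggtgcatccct
BNIP3, chr10:131982014-131982173, minus strand: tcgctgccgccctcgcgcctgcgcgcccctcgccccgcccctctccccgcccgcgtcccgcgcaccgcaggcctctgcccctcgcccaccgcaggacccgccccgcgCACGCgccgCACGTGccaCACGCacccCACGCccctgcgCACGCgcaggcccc
ADM, chr11:10304960-10304989, plus strand: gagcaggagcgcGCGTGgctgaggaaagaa
P4HA1, chr10:73096935-73096964, minus strand: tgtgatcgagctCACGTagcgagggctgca
LDHA, chr11:18394471-18394500, plus strand: actcaCACGTGggttcccgCACGTccgccg
ENO1, chr1:8878741-8878770, minus strand: ggagctgaggggGCGTGccccggaggcggg

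The core letters stood in 22 of the 29 windows, a share of 75.9%, and in 48.4% of all 35116 RefSeq windows of this length. Of the genes with a window, 9 of 10 that rose in NCI-H647 held the core, as did 7 of 9 that fell there and 5 of 9 that were not called. Among the roles, 10 of 14 enzymes and 6 of 7 other hypoxia targets held it. The palindrome was in 4 of the 29 windows and in 7.26% of all windows. The 5 cores of BNIP3 lay between 143 and 104 bases before the RefSeq start used. PGK1, the phosphoglycerate kinase, and LDHA had 4 each. Such a match is only a run of letters and shows neither binding nor its absence.

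Libraries held 38904473 to 43661342 counts in NCI-H1944 and 13358514 to 19550859 in NCI-H647, where the treated libraries were the shallower ones. NCI-H1944 RNA was selected by its poly(A) tail and NCI-H647 RNA was depleted of ribosomal RNA, so kit and line cannot be told apart, and levels are compared within a line. TTK itself was 1.63-fold lower after MPS1i in NCI-H1944 and 1.65-fold lower in NCI-H647. Of 10 lung epithelial markers, 7 were tested in each line, with 2 higher and 0 lower in NCI-H1944 and 1 higher and 3 lower in NCI-H647. EPCAM was low in both lines, at 1.90 to 2.96 CPM in NCI-H1944 and 4.43 to 5.15 CPM in NCI-H647. KRT19, NKX2-1 and KRT5 were listed at 0 in NCI-H1944 and KRT5 in NCI-H647. Such zeros in every library cannot be told from a gap in the counting. Their summed level was 4130 and 4138 CPM after DMSO and 4794 and 4954 CPM after MPS1i in NCI-H1944, and 900.2 and 879.1 against 643.8 and 639.9 CPM in NCI-H647. Leukocyte and erythroid markers summed to 72.2 and 74.9 against 166.7 and 170.3 CPM in NCI-H1944 and to 148.8 and 149.6 against 227.7 and 225.5 CPM in NCI-H647; 4 of 5 and 2 of 2 tested rose, while PTPRC and MS4A1 were at 0 in the former line and MS4A1 and HBB in the latter. Fibroblast and endothelial markers summed to 34.2 and 30.3 against 48.1 and 47.6 CPM in NCI-H1944, where 4 of 4 rose and COL1A2 was at 0. In NCI-H647 they summed to 62.5 and 68.8 against 56.2 and 52.1 CPM, with 1 of 6 higher, 3 lower and none at 0 throughout. The part of depth and of these marker genes in the results below was not tested. In bulk RNA, fewer cells of a type and less RNA per cell cannot be told apart.

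In NCI-H647 the pulse was followed by higher RNA of most hypoxia targets outside glycolysis and by lower RNA of many glycolytic enzymes. VEGFA, NDRG1 and PFKFB4 rose about as much as each other, by 1.32 to 1.35 on the log2 scale, while LDHA, GPI, ENO1 and GAPDH fell by 0.36 to 0.51. In NCI-H1944 calls were mixed, and among genes that passed the test ANGPTL4 rose by 2.50, PFKFB4 by 0.72 and ADM by 0.72. Differences were called by edgeR's quasi-likelihood F test at a Benjamini-Hochberg adjusted p under 0.05 over all genes tested. Of 33 genes, 32 passed the filter on low counts in each line; CA9 was left out in NCI-H1944 and ANGPTL4 in NCI-H647. In NCI-H1944, 11 were higher and 6 lower after MPS1i and 15 were not called, beside 13.6% higher and 12.4% lower of the 16738 genes tested, 26% in all. In NCI-H647, 14 were higher, 9 lower and 9 not called, beside 27.3% higher and 27% lower of 15049 genes, 54.4% in all. The median log2 fold change of the 32 was 0.04 in NCI-H1944 and 0.0010 in NCI-H647, and over all genes tested it was 0.0011 and 0.0054.

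By role, the other hypoxia targets had 2 of 9 tested members higher and 0 lower in NCI-H1944, with a median log2 fold change of 0.08, and 7 of 9 higher and 0 lower in NCI-H647, with a median of 0.75. Of the 14 enzymes, 5 rose and 5 fell in NCI-H1944, with a median of −0.02, and 2 rose and 7 fell in NCI-H647, with a median of −0.07. Enzymes called higher in NCI-H1944 numbered 2 without DMSO replicate 2 and 3 with no low-count filter, and in NCI-H647 1 without DMSO replicate 2, without MPS1i replicate 1, with DESeq2 or with no low-count filter. Called rises of more than 1.5-fold were those of ANGPTL4, ADM, PFKFB4 and HK2 in NCI-H1944, beside 5.1% of all genes tested. In NCI-H647 they were those of VEGFA, PFKFB4, NDRG1, ADM, P4HA2, PFKFB3, ANKRD37 and ENO2, beside 11.1% of all genes. None of the 33 fell by more than 1.5-fold in either line, the lowest being LDHA in NCI-H647. Called falls past that size made up 1.03% of genes tested in NCI-H1944 and 8.14% in NCI-H647. When the test was made against a minimum change of 1.5-fold, ANGPTL4 stayed called in NCI-H1944, and VEGFA, NDRG1, ADM, P4HA2, PFKFB3 and PFKFB4 stayed called in NCI-H647.

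**Figure D1:**
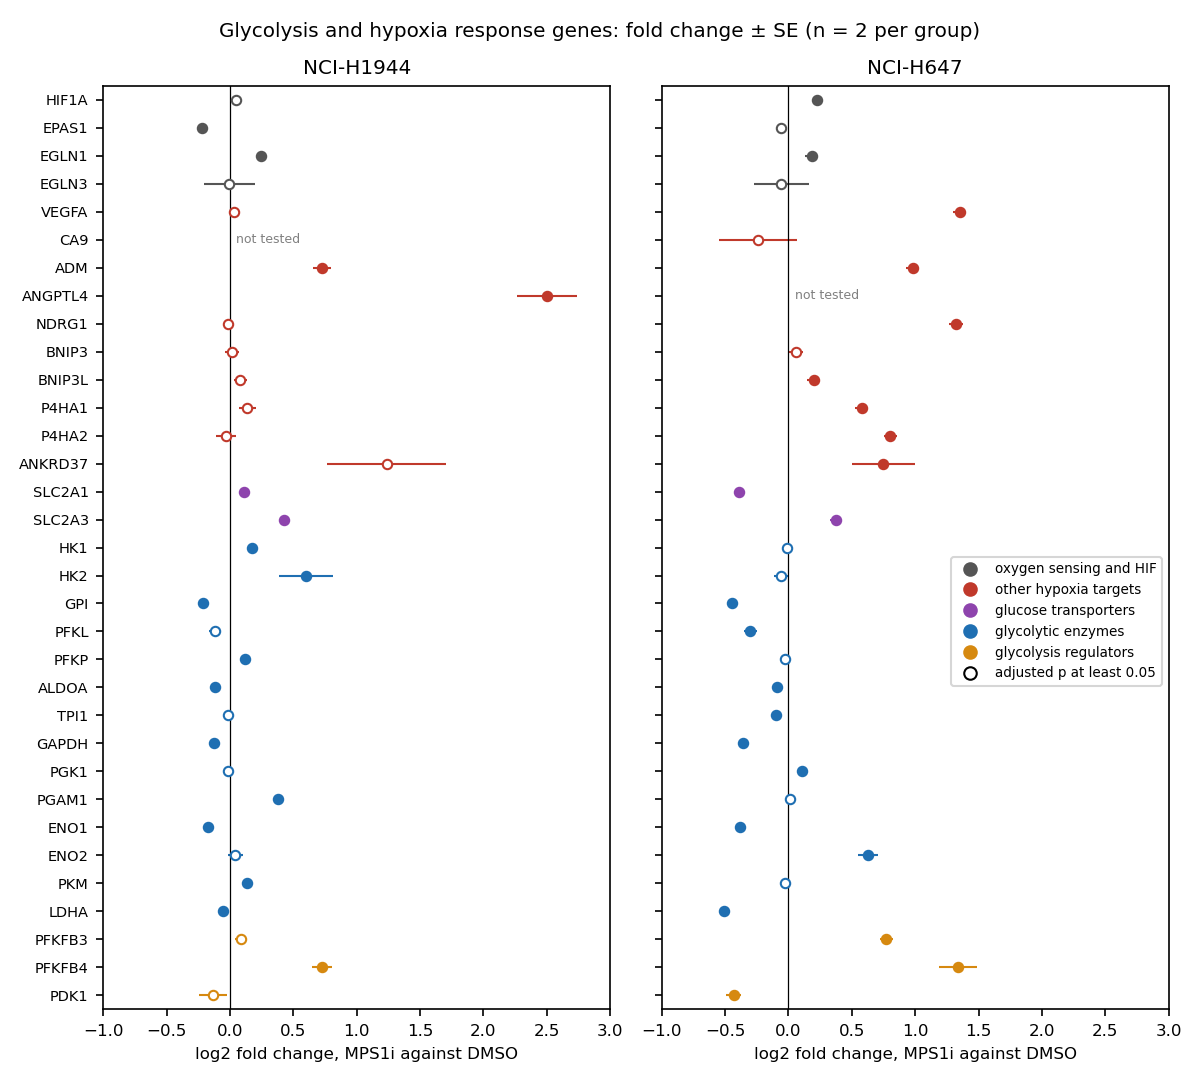
Log2 fold change after MPS1i against DMSO (x axis) for each of the 33 genes (y axis, ordered by role), in NCI-H1944 on the left and NCI-H647 on the right; bars are the standard error of the fit, filled points have an adjusted p under 0.05 and n = 2 libraries per group. In NCI-H647 several red and orange points lie far to the right, such as VEGFA at 1.35 and PFKFB4 at 1.34. Orange PDK1 at −0.43 and red CA9 at −0.24 lie left of 0, and red BNIP3 at 0.06 lies near it. Most blue enzyme points lie at or left of 0.

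Among the oxygen-sensing genes, HIF1A encodes the broadly expressed alpha subunit. Its level was 813.7 and 852.9 CPM (the count scaled to a common library size with TMM factors) after DMSO and 955.2 and 987.7 CPM after MPS1i in NCI-H647, a log2 fold change of 0.22 ± 0.03 (SE; edgeR adjusted p = 3.42e-05). In NCI-H1944 it stood at 579.5 and 569.0 against 601.8 and 586.5 CPM, with a log2 fold change of 0.05 ± 0.03 that was not called (adjusted p = 0.192). Treated libraries lay above control libraries in both lines. In NCI-H1944, however, the gap from the higher control to the lower treated library was smaller than the gap between replicates. EPAS1, the gene of HIF-2 alpha, went the other way. In NCI-H1944 it fell from 644.3 and 634.2 to 546.2 and 551.3 CPM (log2 fold change −0.22 ± 0.03, adjusted p = 5.34e-06), and the groups were well apart. In NCI-H647 it was 617.3 and 615.8 against 603.3 and 580.3 CPM and missed the threshold (−0.06 ± 0.03, adjusted p = 0.131), although with MPS1i replicate 1 left out it was called at −0.10.

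EGLN1, the main prolyl hydroxylase that marks the alpha subunits, rose in both lines by similar amounts. In NCI-H1944 it went from 147.8 and 148.0 to 179.2 and 172.0 CPM (log2 fold change 0.25 ± 0.04, adjusted p = 6.91e-05). In NCI-H647 it went from 50.5 and 50.3 to 58.5 and 56.1 CPM (0.18 ± 0.05, adjusted p = 0.00691), groups again not overlapping. That second call was lost with DESeq2, with no low-count filter and without MPS1i replicate 1 (log2 fold change 0.14), the adjusted p running from 0.00137 to 1 over 10 alternatives. EGLN3, an inducible hydroxylase, was scarce, at 3.09 to 4.59 CPM in NCI-H1944 and 3.17 to 4.22 CPM in NCI-H647, and its groups overlapped in both lines.

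In NCI-H647 VEGFA and NDRG1 changed most among the targets tested. VEGFA encodes the main growth factor for blood vessels. Its level there was 63.1 and 66.9 CPM after DMSO and 170.5 and 161.0 CPM after MPS1i. The treated libraries were far above the controls, 2.55-fold on average (log2 fold change 1.35 ± 0.05, adjusted p = 1.03e-11). In NCI-H1944 VEGFA stood at 129.2 and 135.8 against 132.4 and 138.2 CPM, groups that overlapped (0.03 ± 0.04, adjusted p = 0.634). NDRG1, a stress-responsive gene linked to growth arrest and iron loss, showed the same contrast. It went from 41.8 and 40.6 to 106.7 and 99.6 CPM in NCI-H647 (2.50-fold, log2 fold change 1.32 ± 0.06, adjusted p = 3.06e-11). In NCI-H1944 its treated libraries, at 153.3 and 163.3 CPM, lay on either side of the controls at 160.3 and 160.2 CPM (−0.02 ± 0.04, adjusted p = 0.791).

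ADM, which encodes the vessel-dilating peptide adrenomedullin, rose in both lines. Levels went from 49.6 and 49.8 to 99.2 and 96.8 CPM in NCI-H647 (log2 fold change 0.98 ± 0.05, adjusted p = 4.3e-10). In NCI-H1944 they went from 19.4 and 18.8 to 30.4 and 32.8 CPM (0.72 ± 0.07, adjusted p = 9.31e-07). Control and treated libraries were clearly apart in each line. P4HA1 and P4HA2 encode the catalytic subunits of the prolyl hydroxylase that matures collagen. P4HA2 rose in NCI-H647 from 48.8 and 48.3 to 83.4 and 85.9 CPM (0.80 ± 0.05, adjusted p = 4.77e-09), and P4HA1 from 70.7 and 68.9 to 101.9 and 106.3 CPM (0.58 ± 0.05, adjusted p = 1.95e-07). Replicates there differed by a few CPM at most. Neither was called in NCI-H1944, where P4HA2 was 26.1 and 29.5 against 28.8 and 25.4 CPM (−0.03 ± 0.08, adjusted p = 0.809) and P4HA1 24.5 and 25.4 against 26.6 and 28.2 CPM (0.14 ± 0.07, adjusted p = 0.163).

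The mitophagy receptors BNIP3 and BNIP3L changed little. BNIP3, whose promoter carries the 5 cores shown above, was at 100.9 and 97.7 against 109.4 and 97.5 CPM in NCI-H647 and was not called in either line. BNIP3L was higher in NCI-H647, at 73.8 and 74.2 against 85.1 and 84.8 CPM (log2 fold change 0.20 ± 0.05, adjusted p = 0.0034), with tight replicates. DESeq2 did not make that call, and the adjusted p ran from 0.000667 to 1 over 10 alternatives. ANKRD37, a small ankyrin-repeat protein gene, is a low-count case. Counts in NCI-H647 were 37 and 36 in the controls and 42 and 51 in the shallower treated libraries, a log2 fold change of 0.75 ± 0.25 (adjusted p = 0.0197). The call was absent with DESeq2, without DMSO replicate 1 (0.68) and without MPS1i replicate 2 (0.58), over a range of adjusted p from 0.0139 to 0.61. In NCI-H1944, with 16 and 9 against 28 and 37 counts, its log2 fold change of 1.24 ± 0.47 missed the threshold (adjusted p = 0.066) and passed it only when DMSO replicate 1 was left out (1.70).

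CA9 and ANGPTL4 could each be tested in a single line. CA9, a carbonic anhydrase of the cell surface and a standard hypoxia marker, had 0 counts in all 4 NCI-H1944 libraries, which allows up to 0.0689 to 0.0767 CPM by counting error if reads of the gene could be counted there. A gene at 0 in every library cannot be told from a gap in the counting. In NCI-H647 it had 41, 37, 32 and 18 counts, or 2.14 and 2.18 against 2.32 and 1.33 CPM (log2 fold change −0.24 ± 0.31, adjusted p = 0.537). Its lowest and highest libraries were both treated ones. ANGPTL4, a secreted inhibitor of lipoprotein lipase that responds to hypoxia and to fatty acid sensors, had the largest fold change of the 33 genes. Its NCI-H1944 counts were 26 and 31 in the controls and 193 and 164 after MPS1i, or 0.66 and 0.79 against 4.43 and 3.83 CPM (5.67-fold, log2 fold change 2.50 ± 0.24, adjusted p = 5.66e-07). In NCI-H647 it had 1 and 2 against 8 and 3 counts and was not tested.

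**Figure D2:**
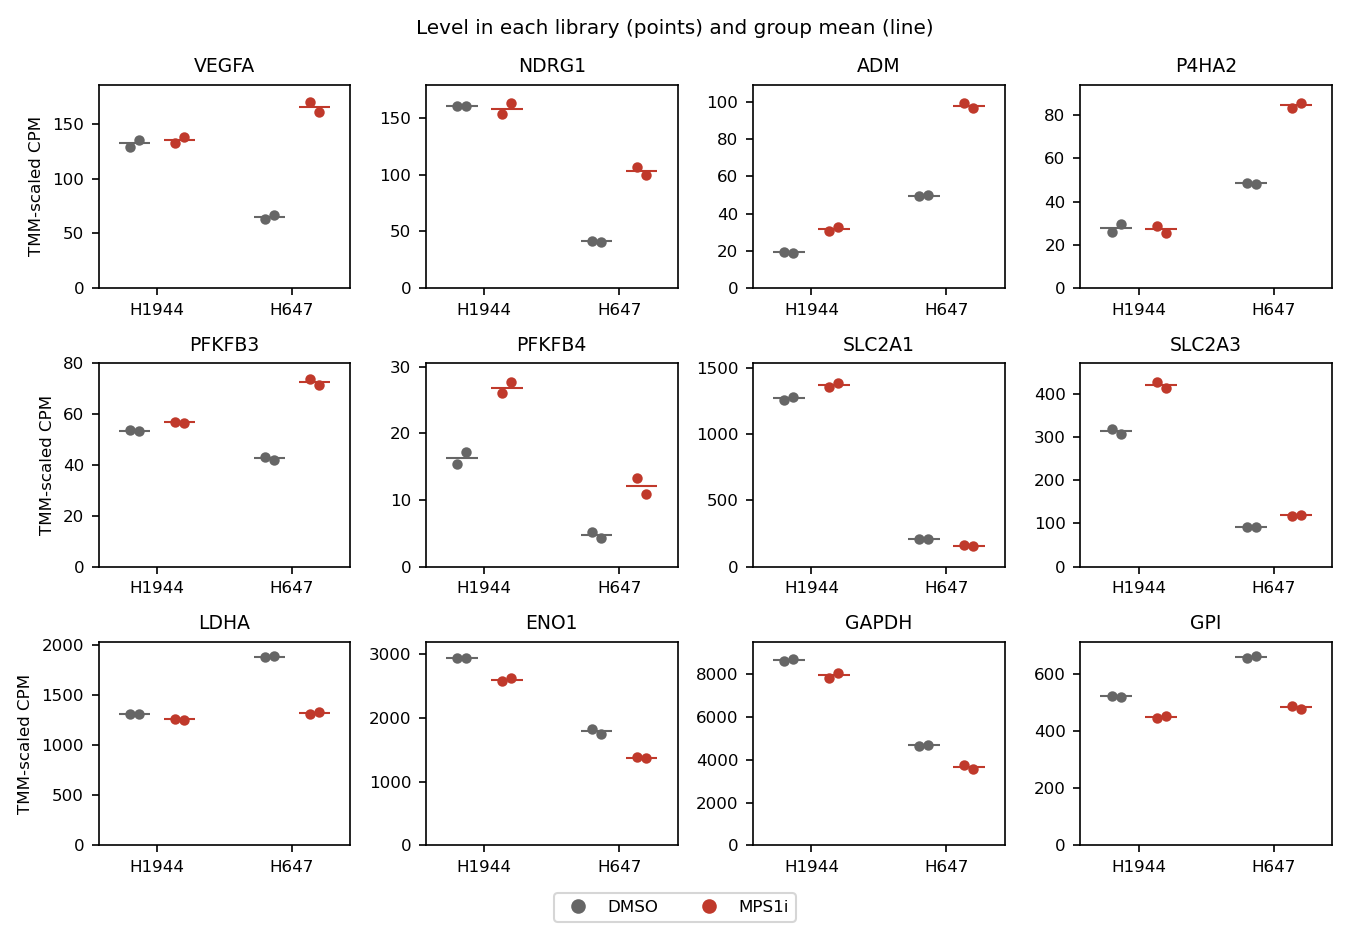
TMM-scaled CPM (y axis, from 0) of 12 genes in each library, with points for libraries and a line at the group mean (n = 2), grey for DMSO and red for MPS1i. VEGFA, NDRG1 and P4HA2 separate by treatment in NCI-H647 only, ADM, PFKFB4 and SLC2A3 are higher after MPS1i in both lines, and the lower row shows LDHA, ENO1, GAPDH and GPI lower after MPS1i.

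The glucose transporters parted company in NCI-H647. SLC2A1 encodes GLUT1, the basal transporter of most cancer cells, and SLC2A3 encodes GLUT3, which has a higher affinity for glucose. In NCI-H647 SLC2A1 fell from 206.2 and 206.0 to 161.8 and 153.3 CPM (log2 fold change −0.39 ± 0.04, adjusted p = 1.74e-06), while SLC2A3 rose from 90.8 and 93.0 to 117.6 and 120.1 CPM (0.37 ± 0.05, adjusted p = 9.42e-06). In NCI-H1944 both rose. SLC2A1 went from 1257 and 1281 to 1351 and 1385 CPM (0.11 ± 0.02, adjusted p = 0.00114) and SLC2A3 from 320.1 and 308.1 to 428.4 and 414.8 CPM (0.42 ± 0.03, adjusted p = 2.37e-08). SLC2A1 is the only gene of the 33 that was called in opposite directions, and no group overlapped another within a line. Per kilobase of coding-transcript exons, the ratio of SLC2A1 to SLC2A3 went from 2.23 and 2.18 to 1.35 and 1.25 in NCI-H647 and from 3.86 and 4.09 to 3.10 and 3.28 in NCI-H1944.

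PFKFB3 and PFKFB4 encode bifunctional enzymes that make and break fructose 2,6-bisphosphate, the activator of phosphofructokinase. PFKFB4 rose in both lines, from 5.16 and 4.36 to 13.4 and 10.9 CPM in NCI-H647 (2.53-fold, log2 fold change 1.34 ± 0.15, adjusted p = 2.68e-06) and from 15.3 and 17.2 to 26.1 and 27.7 CPM in NCI-H1944 (1.65-fold, 0.72 ± 0.08, adjusted p = 3.68e-06). Replicates differed by more than for the abundant genes, but groups stayed apart. PFKFB3 rose in NCI-H647 from 43.3 and 41.8 to 73.9 and 71.4 CPM (0.77 ± 0.05, adjusted p = 9.06e-09). In NCI-H1944 it was 53.7 and 53.3 against 56.9 and 56.5 CPM (0.08 ± 0.05, adjusted p = 0.214). PDK1, the kinase that closes pyruvate dehydrogenase and is a classical hypoxia target, fell in NCI-H647 from 45.9 and 42.6 to 32.2 and 33.5 CPM (−0.43 ± 0.06, adjusted p = 1.6e-05). It stood at 8.38 and 9.79 against 8.38 and 8.16 CPM in NCI-H1944 and was not called. An antisense entry named for PDK1 held 2.84% to 5.87% of the PDK1 count in NCI-H647, and the strand setting of the counting is not given in the sources used here.

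Of the glycolytic enzymes, GPI, ALDOA, GAPDH, ENO1 and LDHA were lower after MPS1i in both lines. GAPDH, which makes the first NADH of the pathway, was the most abundant of the 33 genes. It fell from 4671 and 4696 to 3738 and 3557 CPM in NCI-H647 (log2 fold change −0.36 ± 0.03, adjusted p = 5.43e-08) and from 8615 and 8738 to 7836 and 8088 CPM in NCI-H1944 (−0.12 ± 0.01, adjusted p = 5.7e-06). ENO1, the main enolase, fell from 1829 and 1754 to 1381 and 1363 CPM in NCI-H647 (−0.39 ± 0.03, adjusted p = 3.37e-08) and from 2938 and 2936 to 2573 and 2629 CPM in NCI-H1944 (−0.18 ± 0.02, adjusted p = 6.68e-07). Neither gene's groups overlapped. GPI, the glucose phosphate isomerase at the second step, fell from 654.7 and 661.2 to 488.2 and 475.9 CPM in NCI-H647 (−0.45 ± 0.03, adjusted p = 1.28e-08) and from 522.4 and 520.2 to 444.9 and 452.9 CPM in NCI-H1944 (−0.22 ± 0.03, adjusted p = 1.2e-05).

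LDHA, which turns pyruvate into lactate, had the largest fall of the enzymes. In NCI-H647 it went from 1877 and 1883 to 1313 and 1332 CPM, 1.42-fold lower (log2 fold change −0.51 ± 0.03, adjusted p = 5.93e-10). In NCI-H1944 the fall was slight, from 1310 and 1309 to 1263 and 1251 CPM (−0.06 ± 0.02, adjusted p = 0.0393). The latter call did not hold with no low-count filter, nor without DMSO replicate 1 (−0.06), DMSO replicate 2 (−0.06) or MPS1i replicate 2 (−0.05), and its adjusted p ran from 0.0111 to 1. ALDOA, the main muscle-type aldolase, fell from 1318 and 1302 to 1230 and 1184 CPM in NCI-H1944 (−0.12 ± 0.02, adjusted p = 0.000893) and from 790.1 and 802.4 to 744.7 and 750.7 CPM in NCI-H647 (−0.09 ± 0.03, adjusted p = 0.0167). Scaled by library totals alone, or without DMSO replicate 2, ALDOA was not called in NCI-H647 (−0.04 and −0.08). Its adjusted p there ran from 0.00557 to 1.

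Other enzymes were called in NCI-H647 alone. PFKL, the liver-type phosphofructokinase, fell there from 85.1 and 84.8 to 71.3 and 66.6 CPM (log2 fold change −0.30 ± 0.05, adjusted p = 2e-04). In NCI-H1944, at 97.8 and 101.9 against 86.8 and 97.1 CPM, it missed the threshold (−0.12 ± 0.05, adjusted p = 0.0909), although it was called at −0.20 without MPS1i replicate 2. TPI1, the triose phosphate isomerase, fell in NCI-H647 from 560.8 and 560.6 to 527.8 and 517.5 CPM (−0.10 ± 0.03, adjusted p = 0.0122), a call that scaling by library totals ended (−0.05, adjusted p = 0.171, with a range of 0.00422 to 1). In NCI-H1944 its groups overlapped.

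ENO2 and PGK1 were the enzymes that rose in NCI-H647. ENO2, the neuronal-type enolase, went from 22.3 and 19.9 to 34.8 and 30.6 CPM (log2 fold change 0.63 ± 0.08, adjusted p = 7.72e-06), the opposite direction to ENO1. In NCI-H1944 it was 32.6 and 31.9 against 32.8 and 33.5 CPM and was not called (0.04 ± 0.06, adjusted p = 0.681). PGK1 was 408.0 and 400.8 against 442.9 and 428.5 CPM in NCI-H647 (0.11 ± 0.03, adjusted p = 0.0134). That small rise was not called with DESeq2, with no low-count filter, without DMSO replicate 2 (0.09) or without MPS1i replicate 1 (0.07), the adjusted p running from 0.00111 to 1. In NCI-H1944 PGK1 overlapped between the groups.

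In NCI-H1944 HK1, HK2, PFKP, PGAM1 and PKM were the enzymes that rose, and none of these was called in NCI-H647. PGAM1, a phosphoglycerate mutase, rose from 314.0 and 312.5 to 404.5 and 408.9 CPM (log2 fold change 0.38 ± 0.03, adjusted p = 3.64e-08), far outside the replicate spread. In NCI-H647 it overlapped between the groups, at 217.0 and 221.5 against 218.2 and 224.3 CPM. PKM, the pyruvate kinase of most cells outside the liver, rose in NCI-H1944 from 2748 and 2729 to 2945 and 3071 CPM (0.14 ± 0.02, adjusted p = 4.95e-05) and was 1444 and 1503 against 1444 and 1443 CPM in NCI-H647. PFKP, the platelet-type phosphofructokinase, rose in NCI-H1944 from 294.6 and 293.3 to 315.6 and 323.2 CPM (0.12 ± 0.03, adjusted p = 0.00705). It was 236.8 and 234.9 against 235.4 and 228.2 CPM in NCI-H647. Without DMSO replicate 2 the PFKP call was lost at a log2 fold change of 0.11.

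The hexokinases trap glucose in the cell as its phosphate. HK1, the constitutive form, rose in NCI-H1944 from 130.2 and 123.4 to 141.1 and 144.6 CPM (log2 fold change 0.17 ± 0.04, adjusted p = 0.00327) and stood at 287.4 and 275.7 against 284.1 and 274.9 CPM in NCI-H647. Its call was absent with no low-count filter and without DMSO replicate 2 (0.13). HK2, the inducible form and a known hypoxia target, was rare in NCI-H1944, at 3.20 and 2.02 against 3.65 and 4.28 CPM. Its log2 fold change of 0.60 ± 0.21 only just passed (adjusted p = 0.0495), and the gap between the control libraries was wider than that from the higher control to the lower treated library. Leaving out DMSO replicate 2 (0.31), MPS1i replicate 1 (0.71) or MPS1i replicate 2 (0.49) ended the call, as did DESeq2, library totals and no low-count filter, over a range of adjusted p from 0.000681 to 1. In NCI-H647 HK2 was 78.2 and 81.4 against 79.6 and 73.6 CPM and was not called.

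Added together, the 14 enzymes took a smaller share of all counts after MPS1i in both lines. In NCI-H647 the share was 1.29% and 1.30% after DMSO and 1.12% and 1.09% after MPS1i. In NCI-H1944 it was 1.96% and 1.98% against 1.85% and 1.88%. The groups did not overlap in either line, but an exact permutation test of 2 against 2 libraries cannot give a p below 0.33. GAPDH alone made up 0.458% and 0.462% against 0.380% and 0.361% of counts in NCI-H647, and 0.863% and 0.879% against 0.782% and 0.803% in NCI-H1944. Without GAPDH the share was 0.833% and 0.834% against 0.738% and 0.731% in NCI-H647 and 1.10% and 1.10% against 1.07% and 1.08% in NCI-H1944, so that GAPDH carried most of the difference in NCI-H1944.

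**Figure D3:**
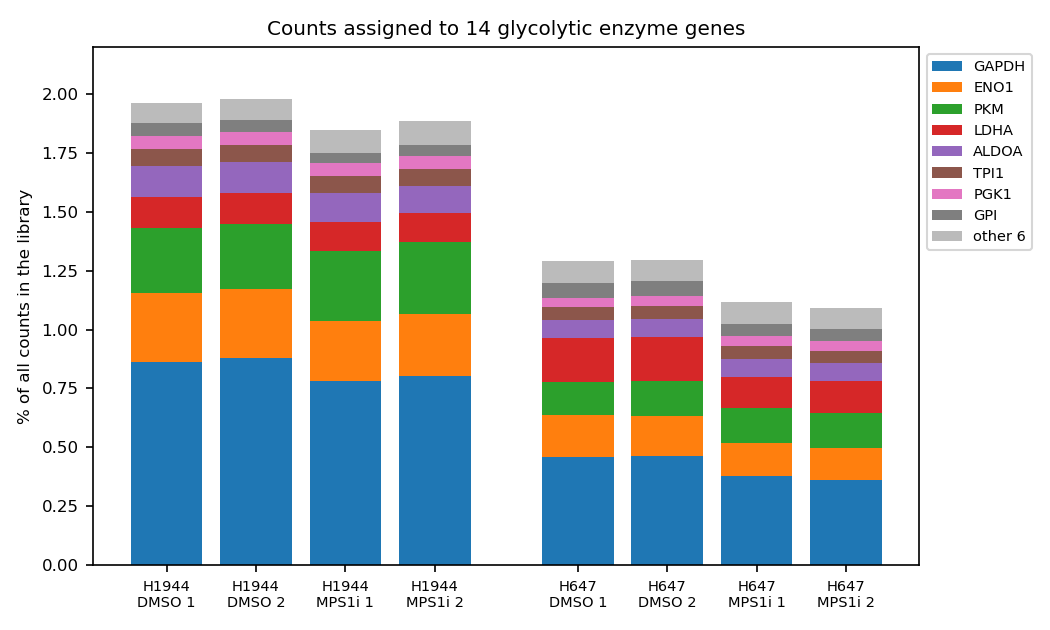
Share of all counts in each library (y axis, %) assigned to the 14 glycolytic enzyme genes, stacked by gene with the 6 least abundant joined; each bar is 1 library. Bars after MPS1i are shorter than the controls of the same line, 1.12% and 1.09% against 1.29% and 1.30% in NCI-H647, and the blue GAPDH segment is the largest in all 8.

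Whether the lines responded differently was tested by the line-by-treatment term of a joint edgeR fit of all 8 libraries, on the 12887 genes kept by the filter in each line. Of the 31 genes that could be tested, 10 changed more upward in NCI-H647 than in NCI-H1944, 13 more downward and 8 were not called, beside 17.4% and 22.7% of all genes tested, 40.1% together. By role, 5 of 8 other hypoxia targets were shifted upward and 0 downward, and 11 of 14 enzymes were shifted downward with ENO2 alone upward. PGK1 missed the threshold (0.10 ± 0.04, adjusted p = 0.0851) and was called upward as well with DESeq2 (0.11), RLE factors (0.12), library totals (0.18) and without NCI-H1944 MPS1i replicate 2 (0.13). The median difference was 0.32 for those targets and −0.21 for the enzymes on the log2 scale, beside −0.04 for all genes. Scaled by library totals, 59.1% of all calls of this term were upward instead of 43.4%, and the enzymes shifted downward numbered 7 instead of 11.

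NDRG1 and VEGFA had the widest gaps between the lines, 1.32 ± 0.06 and 1.30 ± 0.06 on the log2 scale (adjusted p = 1.89e-13 and 7.49e-14), and only these 2 stayed called against a 1.5-fold minimum. SLC2A1 differed by −0.52 ± 0.05 (adjusted p = 1.5e-08), LDHA by −0.47 ± 0.04 (adjusted p = 1.04e-08) and PGAM1 by −0.39 ± 0.04 (adjusted p = 2.46e-07). PGAM1 rose in NCI-H1944 and was level within its error in NCI-H647, whereas LDHA fell mainly in NCI-H647. No difference between the lines was called for EGLN1 (−0.09 ± 0.06), SLC2A3 (−0.08 ± 0.05) or ALDOA (0.00 ± 0.04), genes that changed the same way in both.

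**Figure D4:**
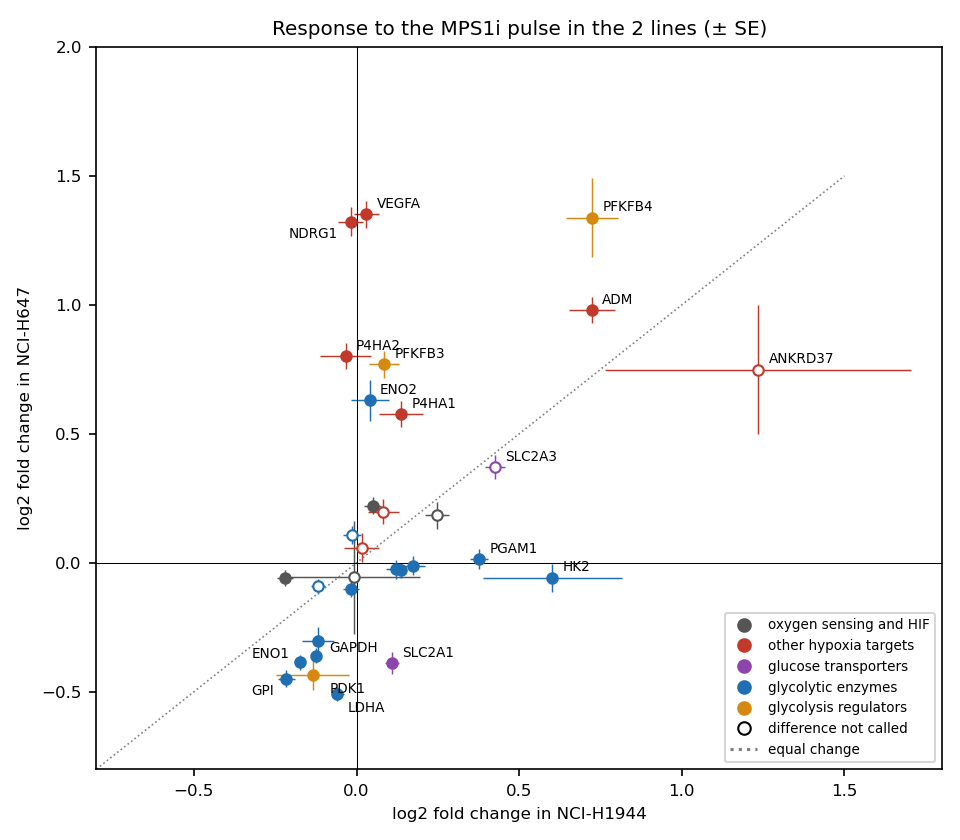
Log2 fold change after MPS1i in NCI-H1944 (x axis) against that in NCI-H647 (y axis) for the 31 genes tested in both lines, with standard errors; filled points have a called difference between the lines and the dotted line marks equal change. NDRG1, VEGFA, P4HA2 and PFKFB3 sit high on the vertical axis line, changed in NCI-H647 only, while LDHA, GPI, ENO1 and GAPDH lie below the dotted line.

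Levels per kilobase of exon in the DMSO libraries place the genes on a common scale within a line. GAPDH came first and ENO1 second in both lines, with means of 3902 and 1222 CPM per kb in NCI-H1944 and 2106 and 745.2 CPM per kb in NCI-H647. PKM, ALDOA and LDHA followed in NCI-H1944, at 826.9, 544.2 and 441.0 CPM per kb. In NCI-H647 LDHA took the third place, at 633.2 CPM per kb, before PKM at 444.9 and ALDOA at 330.9. SLC2A1 was seventh in NCI-H1944, at 318.4 CPM per kb, and fourteenth in NCI-H647, at 51.7. The lowest were CA9, ANKRD37 and ANGPTL4 in NCI-H1944, at no more than 0.386 CPM per kb, and ANGPTL4, EGLN3 and PFKFB4 in NCI-H647, at no more than 1.33 CPM per kb. In the NCI-H647 controls VEGFA stood at 17.3 and NDRG1 at 11.0 CPM per kb, below 12 of the 14 enzymes. HK2, at 13.4 CPM per kb, lay between them, and ENO2, at 6.67, below both.

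Ratios within a library do not depend on how libraries are scaled. The ratio of ENO1 to ENO2 per kb was 108 and 116 after DMSO and 52.1 and 58.6 after MPS1i in NCI-H647, and 119 and 121 against 103 and 103 in NCI-H1944. PFKFB3 stood to PFKFB4 as 5.52 and 6.31 against 3.64 and 4.33 in NCI-H647 and as 2.31 and 2.04 against 1.44 and 1.34 in NCI-H1944. HIF1A gained on EPAS1 in both lines, from 1.60 and 1.68 to 1.92 and 2.07 in NCI-H647 and from 1.09 and 1.09 to 1.34 and 1.29 in NCI-H1944. PFKP gained on PFKL as well, from 2.18 and 2.17 to 2.58 and 2.68 and from 2.36 and 2.25 to 2.85 and 2.60. In each of these 4 pairs the treated libraries lay on the same side of the controls in both lines. HK1 to HK2 was 51.8 and 77.8 against 49.2 and 43.0 in NCI-H1944, with controls far apart, and 4.67 and 4.31 against 4.54 and 4.75 in NCI-H647, with groups that overlapped.

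**Figure D5:**
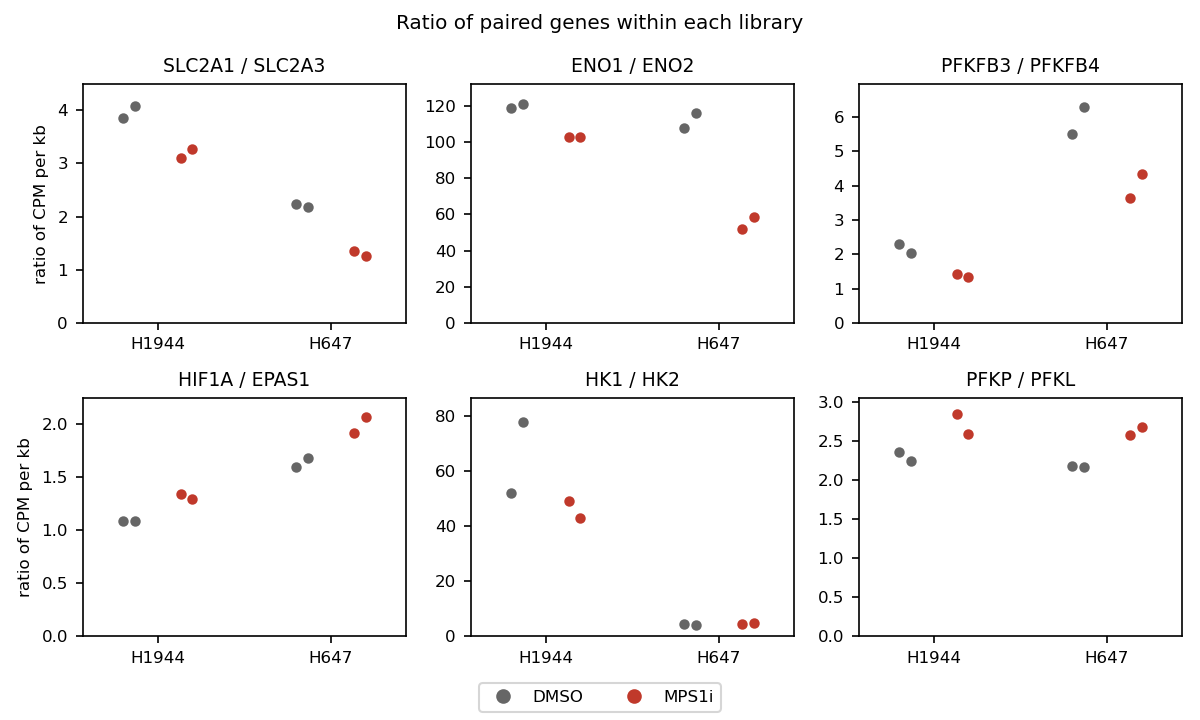
Ratio of CPM per kb of related genes within each library (y axis, from 0), grey for DMSO and red for MPS1i, 2 libraries per group. The ratio of ENO1 to ENO2 in NCI-H647 goes from 108 and 116 to 52.1 and 58.6, and SLC2A1 to SLC2A3 is lower and HIF1A to EPAS1 higher after MPS1i in both lines.

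Further genes of the same pathways were read from lists drawn up by function. Of 39 further hypoxia targets, 14 of 37 tested were higher and 5 lower in NCI-H1944, and 24 of 38 were higher and 7 lower in NCI-H647, with median log2 fold changes of 0.13 and 0.37. Over all genes tested, 13.6% were higher and 12.4% lower in NCI-H1944 and 27.3% and 27% in NCI-H647. STC1, a secreted calcium-regulating hormone, rose from 46.7 and 40.3 to 208.5 and 217.1 CPM in NCI-H647 (4.88-fold, adjusted p = 1.77e-13) and from 94.4 and 97.2 to 167.7 and 163.3 CPM in NCI-H1944 (1.73-fold, adjusted p = 9.18e-11). These changes were far outside the replicate spread in each line. Also among those with the smallest adjusted p were STC2 (1.86-fold higher) and BHLHE40, a transcriptional repressor (1.87-fold higher), in NCI-H647. In NCI-H1944 they included PLOD2, a collagen lysyl hydroxylase (1.38-fold higher), and HMOX1, the inducible heme oxygenase (1.32-fold higher). The log2 fold changes in NCI-H647 were 0.52 for PLOD2 and 1.79 for HMOX1. For HMOX1 the line-by-treatment term of the joint edgeR fit was called upward (adjusted p = 1.65e-10). Other targets of this list went down. DDIT4 and ZNF395 had log2 fold changes of −0.67 and −0.58 in NCI-H647 and of −0.17 and −0.33 in NCI-H1944. GYS1 stood at −0.57 in NCI-H647 and at 0.06, not called, in NCI-H1944.

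Of 14 further genes of the factor's machinery, 2 of 13 tested were higher and 1 lower in NCI-H1944, and 5 of 14 higher and 2 lower in NCI-H647. The shares called, 23.1% and 50%, were near those of all genes, 26% and 54.4%. CITED2, which competes with the alpha subunit for the coactivator p300, rose 1.69-fold in NCI-H647 (adjusted p = 4.59e-08) and 1.30-fold in NCI-H1944 (adjusted p = 1.38e-05). EP300, the gene of that coactivator, was 1.37-fold and 1.16-fold higher. EGLN2, another prolyl hydroxylase, was 1.26-fold higher in NCI-H647 and 1.13-fold lower in NCI-H1944.

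Among 24 further glycolysis genes, 4 of 16 tested rose and 1 fell in NCI-H1944, and 9 of 15 rose and 3 fell in NCI-H647. The shares called were 31.2% and 80%, beside 26% and 54.4% of all genes. LDHB, the lactate dehydrogenase of oxidative tissues, fell with LDHA: from 1664 and 1581 to 1128 and 1103 CPM in NCI-H647 (log2 fold change −0.54 ± 0.03, adjusted p = 1.34e-09) and from 1664 and 1667 to 1602 and 1570 CPM in NCI-H1944 (−0.07 ± 0.02, adjusted p = 0.0123). PFKM, the muscle-type phosphofructokinase, was 1.37-fold lower in NCI-H647. TIGAR, a phosphatase that lowers fructose 2,6-bisphosphate and was named as a p53 target, went from 10.9 and 9.26 to 20.3 and 18.7 CPM there (1.93-fold, adjusted p = 2.42e-06). HKDC1, a hexokinase relative, was 1.35-fold higher. In NCI-H1944 SLC2A12, a facilitative sugar transporter, went from 0.99 and 0.61 to 3.67 and 2.90 CPM (4.09-fold, adjusted p = 2.79e-05), ENO3 was 1.66-fold and SLC2A6 1.32-fold higher, all 3 at low levels.

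All 7 genes of the pentose phosphate pathway, which branches off at glucose 6-phosphate and makes NADPH and ribose, were lower in NCI-H647, with a median log2 fold change of −0.37, and 4 of 7 were lower in NCI-H1944, with a median of −0.12, beside 27% and 12.4% of all genes lower in the 2 lines. TKT, the transketolase, fell from 877.3 and 883.6 to 514.3 and 485.2 CPM in NCI-H647 (1.76-fold lower, adjusted p = 2.52e-11) and from 2478 and 2486 to 1988 and 2087 CPM in NCI-H1944 (1.22-fold lower, adjusted p = 2.74e-08). PGD, the phosphogluconate dehydrogenase, was 1.35-fold lower in NCI-H647 and 1.16-fold lower in NCI-H1944. RPE was 1.41-fold lower in NCI-H647 and TALDO1 1.09-fold lower in NCI-H1944. Of 13 genes of the pyruvate dehydrogenase complex, its regulators and the pyruvate carrier, 7 fell and 1 rose in NCI-H647, and 4 fell and 1 rose in NCI-H1944. These shares called, 61.5% and 38.5%, stand beside 54.4% and 26% of all genes, and falls alone beside 27% and 12.4%. PDK3, a relative of PDK1, was 1.83-fold lower in NCI-H647 (adjusted p = 5.38e-08), where the phosphatase gene PDP1 was 1.72-fold higher. PDHB was 1.32-fold and DLD 1.26-fold lower there. In NCI-H1944 PDK3 was 1.25-fold, PDHB 1.20-fold and PDHA1 1.09-fold lower, and PDK4 was 1.12-fold higher. Of 3 gluconeogenesis genes tested, PCK2 fell in both lines (1.40-fold and 1.17-fold lower in NCI-H647 and NCI-H1944) and PC, the pyruvate carboxylase, in NCI-H647 (1.43-fold lower).

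Glycolytic enzymes have many processed copies, so the counts of entries named as their pseudogenes were read as well. GAPDH copies, 45 entries in NCI-H1944 and 65 in NCI-H647, held at most 0.0732% of the GAPDH count. The highest shares were those of HK2, at 2.53% in 1 library, BNIP3, at 1.83%, and LDHA, at 1.68%, all in NCI-H1944. How reads that match several copies were counted is not given in the sources used here. In NCI-H647 the table's coordinates, on GRCh38, place LDHA at chr11:18394560-18408425 on the plus strand, VEGFA at chr6:43770184-43786487 on the plus strand and SLC2A1 at chr1:42925353-42958893 on the minus strand.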

How the data were processed

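Each deposited table holds whole-number counts of reads per gene, per the file headers and values; the authors did not normalise them. Build GRCh38 and the tools STAR, HISAT2, featureCounts, StringTie, cutadapt, Trimmomatic and Trim Galore come from the submitters' processing notes. Not given in the sources used here are versions, the strand setting and which tool made which table. Per the labels' protocols, NCI-H1944 libraries used a poly(A) kit and NCI-H647 libraries ribosomal RNA depletion, and the tables were counted separately, so only changes within a line were compared between lines.

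In R 4.3.3, genes were kept by filterByExpr (minimum count 10, minimum total 15), scaled by TMM and compared within each line with edgeR 4.0.16 (quasi-likelihood F test, Benjamini-Hochberg, threshold 0.05). The standard error is the log2 fold change over the square root of F. The biological coefficient of variation was 3.99% in NCI-H1944 and 3.54% in NCI-H647. Genes were matched between lines by symbol (32128 shared, highest-count entry where repeated). CPM per kb used the union of exons of GENCODE basic coding transcripts (GRCh38). Intervals and floors (3 counts) cover counting error only. Alternatives were DESeq2 1.42.0, RLE factors, library totals, no low-count filter, a 1.5-fold minimum, a replicate block and leaving out each library.

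All 33 genes are accounted for. Values are given for those called in both lines or between lines, and for the 8 with the smallest adjusted p in each line. HIF1A, EPAS1, VEGFA, CA9, SLC2A1, GAPDH and LDHA are given as well. In a line where they were not called, some of these genes have CPM alone or only a statement of overlap. Of each further list, up to 4 genes with the smallest adjusted p per line were taken, in part as examples; some are not reported here. The genes most alike in pattern to the enzymes were to be named only if the enzymes moved as a group, and were not named. The members and lists were chosen with earlier results of these data known. The fits were tested on simulated data.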

Additional observations from a re-analysis of the deposited data

Results flagged for a closer look

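The change after MPS1i differed between the lines for 23 of the 31 genes tested in both, by the line-by-treatment term of the joint edgeR fit. Differences are given as the log2 fold change in NCI-H647 minus that in NCI-H1944.

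Among the hypoxia targets and oxygen-sensing genes the difference was upward for NDRG1 (1.32), VEGFA (1.30), P4HA2 (0.81), P4HA1 (0.42), ADM (0.23), HIF1A (0.15) and EPAS1 (0.14). For EPAS1 a positive difference stands for a larger fall in NCI-H1944. The ADM call was lost with no low-count filter and without either NCI-H647 DMSO replicate, either NCI-H647 MPS1i replicate, NCI-H1944 DMSO replicate 1 or NCI-H1944 MPS1i replicate 1, at differences of 0.18 to 0.25. HIF1A (0.14) and EPAS1 (0.13) were not called without NCI-H1944 DMSO replicate 1, nor was EPAS1 (0.11) without NCI-H647 MPS1i replicate 1.

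For the transporters and regulators it was −0.52 for SLC2A1, 0.66 for PFKFB3, 0.59 for PFKFB4 and −0.32 for PDK1. PFKFB4 was not called with no low-count filter, without NCI-H647 DMSO replicate 2 (0.48) or without NCI-H647 MPS1i replicate 1 (0.43). PDK1 was not called with DESeq2, RLE factors, library totals or no low-count filter, nor in 5 of 8 fits with 1 library left out: either NCI-H647 MPS1i replicate, NCI-H647 DMSO replicate 1, NCI-H1944 DMSO replicate 1 or NCI-H1944 MPS1i replicate 1 (−0.21 to −0.35).

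Enzymes differed by −0.68 for HK2, −0.47 for LDHA, −0.39 for PGAM1, −0.26 for GAPDH, −0.26 for GPI, −0.23 for ENO1, −0.21 for HK1, −0.21 for PFKL, −0.19 for PKM, −0.17 for PFKP and −0.11 for TPI1, and ENO2 differed by 0.57. Library totals ended the calls of PFKP (−0.09), PKM (−0.11), PFKL (−0.12) and TPI1 (−0.03). PFKL and TPI1 also lost theirs with DESeq2 and with RLE factors, and PFKL with no low-count filter. With 1 library left out, PFKL was not called without either NCI-H647 DMSO replicate, NCI-H647 MPS1i replicate 2, NCI-H1944 DMSO replicate 1 or NCI-H1944 MPS1i replicate 2 (−0.12 to −0.21), and TPI1 stayed called only without NCI-H647 MPS1i replicate 1 (−0.085 to −0.13 in the other 7 fits). HK2 was not called without NCI-H1944 DMSO replicate 2 (−0.39).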

How the results depend on the processing

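Calls held under RLE factors in each line, and counts of the 33 genes called moved by over 1.5 times only against a 1.5-fold minimum and, for the difference between lines, with library totals (8 lower instead of 13). Against the 1.5-fold minimum 1 rose and 0 fell in NCI-H1944, 6 and 0 in NCI-H647, and 2 and 0 differed upward and downward between lines. Over all genes that setting gave 385 higher and 42 lower in NCI-H1944, 792 and 464 in NCI-H647 and 233 and 284 between lines. No low-count filter gave 1319 and 1006 in NCI-H1944, and DESeq2 gave 2122 and 2573 in NCI-H647. With the replicate number as a block, a pairing that the replicates' deviations did not bear out (r = 0.04 and 0.0026 with 2 pairs), 2490 and 2327 were called in NCI-H1944, 4236 and 4198 in NCI-H647 and 2265 and 2950 between lines, against 2271 and 2075, 4114 and 4070, and 2240 and 2926 without it. The block also called PFKL lower in NCI-H1944 (−0.12) and PGK1 upward between lines (0.0984). The enzymes' share, MPS1i minus DMSO, differed by −0.0267 percentage points without GAPDH in NCI-H1944, and in NCI-H647 by −0.0988 without GAPDH and −0.229 with TMM-scaled library size.

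Signs turned only for genes that were not called. In NCI-H647 PGAM1 turned with DESeq2 (−0.006) and no low-count filter (−0.0146), and HK1 (0.0377), PFKP (0.0233) and PKM (0.0188) with library totals. Between lines EGLN3 (0.0095) and SLC2A3 (0.0058) turned with library totals. With 1 library left out, values spanned in NCI-H1944 −0.33 to 0.25 for EGLN3, −0.0069 to 0.0641 for VEGFA, −0.0432 to 0.0046 for TPI1, −0.0413 to 0.0694 for BNIP3, −0.13 to 0.0572 for P4HA2, −0.0608 to 0.0243 for NDRG1, −0.0416 to 0.014 for PGK1; in NCI-H647 −0.29 to 0.12 for EGLN3, −0.0456 to 0.0157 for HK1, −0.0156 to 0.0236 for PGAM1, −0.0376 to 0.13 for BNIP3, −0.71 to 0.0962 for CA9; between lines −0.0655 to 0.10 for BNIP3, −0.0239 to 0.0342 for ALDOA, −0.33 to 0.25 for EGLN3. The cause was not tested. NCI-H647 has less depth, and low genes such as CA9, ANKRD37 and HK2 in NCI-H1944 are the least precise.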
